A study of Homo sapiens with 9 samples.

Results

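The 10 genes described here encode enzymes that make or break down serine, asparagine, glycine, proline, cysteine and folate-bound carbon units: ASNS, PHGDH, PSAT1, PSPH, SHMT2, MTHFD2, ALDH18A1, PYCR1, CHAC1 and CTH. They were taken by symbol as metabolic targets of the transcription factor ATF4, and all 10 were among the 19658 genes with enough reads to be tested. They were selected on a readout of these same libraries, the changes in gene-level read counts between the gRNA2, gRNA1 and control groups, which were known when the set was drawn up. The levels, folds and intervals of the 10 enzymes are therefore a description, no p-value is given for them, and nothing is read from which of them passed the threshold.

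Serine is built from an intermediate of glycolysis by PHGDH, PSAT1 and PSPH in turn. SHMT2 then splits it in the mitochondrion into glycine and a carbon unit carried by folate, and MTHFD2 oxidises that unit on its way to purines and thymidylate. ASNS makes asparagine from aspartate with nitrogen from glutamine, ALDH18A1 and PYCR1 open and close the route from glutamate to proline, CTH yields cysteine from cystathionine, and CHAC1 cleaves glutathione. ATF4 is made in larger amounts when the initiation factor eIF2 is phosphorylated, because the ATF4 mRNA is then translated more, and it drives many of these genes; in lung cancer lines the serine genes are known to be under ATF4 downstream of NRF2.

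The cells were H1975, which came from a lung adenocarcinoma with a mutated and active EGFR, engineered to carry a catalytically dead Cas9 fused to the KRAB repressor domain behind a doxycycline-responsive promoter (TRE-dCas9-KRAB). There were 3 libraries labelled TRIDENT gRNA2, 3 labelled TRIDENT gRNA1 and 3 with the non-targeting (NT) guide as control, and TRIDENT is a long noncoding RNA. All 9, controls included, carried the repressor, had 4 ug/ml doxycycline for 72 h and grew in RPMI with tetracycline-free serum, G418 and puromycin. The labels do not say whether the 3 libraries of a group came from separate cultures, so the spread between them may be technical, and do not say whether the cells were clonal.

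Libraries held 16918432 to 26466536 reads. The gene that RefSeq lists with the synonym TRIDENT (ENSG00000262185.2) had 61, 60 and 42 reads in the libraries labelled gRNA2, 36, 49 and 38 in those labelled gRNA1, and 49, 56 and 62 in controls. Its fold was 0.945 with gRNA2, where the groups overlapped, and 0.745 with gRNA1, and neither passed the threshold (edgeR quasi-likelihood test, adjusted p = 0.810 and 0.128), so the groups are named here by their labels. Summed markers of epithelium (EPCAM, CDH1 and 4 keratins) lay at 2779 to 3008 CPM (reads scaled to a common library total) with gRNA2, 2902 to 3010 with gRNA1 and 2963 to 3192 in controls. Summed haematopoietic markers lay at 61.5 to 71.9, 58.7 to 61.8 and 59.8 to 64.4, fibroblast markers at 15.4 to 18.6, 13.8 to 17.9 and 14.0 to 16.8, and endothelial markers at 3.96 to 4.54, 5.12 to 5.47 and 2.90 to 3.35, each in the order gRNA2, gRNA1, control. Of these markers 2 of 5 haematopoietic, 3 of 5 fibroblast and 3 of 3 endothelial genes had enough reads to be tested, HBB was at 0 in every library, and CD3E and LUM had at most 1 read. The endothelial sums did not overlap between groups, and their part in the results was not tested.

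The promoters of 4 members are shown because these genes passed an adjusted p of 0.05, higher with gRNA2, against both other groups. That choice was made on these same data, so nothing is read from matches falling among the 4. Each line gives the 250 bases before the annotated RefSeq start (build GRCh38.p14), 5′ to 3′ on the strand of the gene, at chr7:97872409-97872658 (minus strand) for ASNS, chr9:78296875-78297124 (plus strand) for PSAT1, chr2:74198365-74198614 (plus strand) for MTHFD2 and chr15:40953221-40953470 (plus strand) for CHAC1. Capitals mark a match to TGATGNAA, the letters to which ATF4 is known to bind together with a C/EBP factor, read on either strand (TTNCATCA on the other).
ASNS: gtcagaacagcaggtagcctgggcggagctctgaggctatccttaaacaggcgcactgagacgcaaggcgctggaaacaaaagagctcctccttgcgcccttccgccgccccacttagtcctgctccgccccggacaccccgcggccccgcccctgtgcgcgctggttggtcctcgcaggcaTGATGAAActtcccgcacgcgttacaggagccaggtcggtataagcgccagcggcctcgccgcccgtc
PSAT1: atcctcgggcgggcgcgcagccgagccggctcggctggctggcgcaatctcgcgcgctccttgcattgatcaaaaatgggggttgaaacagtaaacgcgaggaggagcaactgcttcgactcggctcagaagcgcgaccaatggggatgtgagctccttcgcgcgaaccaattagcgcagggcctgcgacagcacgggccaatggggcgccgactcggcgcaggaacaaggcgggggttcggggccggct
MTHFD2: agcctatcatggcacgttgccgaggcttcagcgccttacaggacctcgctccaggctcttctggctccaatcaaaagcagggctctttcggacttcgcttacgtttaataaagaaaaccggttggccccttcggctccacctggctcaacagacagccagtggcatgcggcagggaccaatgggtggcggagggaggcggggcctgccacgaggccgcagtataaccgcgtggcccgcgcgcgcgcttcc
CHAC1: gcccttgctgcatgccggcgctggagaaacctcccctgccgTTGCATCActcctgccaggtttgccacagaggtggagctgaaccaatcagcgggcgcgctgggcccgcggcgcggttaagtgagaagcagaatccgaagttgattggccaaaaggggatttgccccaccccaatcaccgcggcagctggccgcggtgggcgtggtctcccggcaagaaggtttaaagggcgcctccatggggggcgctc

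The ASNS window held 1 match, starting 68 bases before the start, and the CHAC1 window held 1, starting 209 bases before the start and reading on the opposite strand. The CHAC1 match also met the stricter form TGATGCAA (TTGCATCA). No match stood in the windows of PSAT1 or MTHFD2 shown above, in a second ASNS window, or in those of PHGDH, ALDH18A1 and CTH. Across all promoters of that length, 3.144% of 35116 windows held the looser form and 0.7717% the stricter one. A match is a description and does not show binding, and a window without these letters says nothing of the factor.

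Asparagine synthetase, ASNS (ENSG00000070669.16, chr7:97852118-97872542, minus strand, hg38), was highest in the libraries labelled gRNA2 and lowest in those labelled gRNA1. Its level, in CPM with library totals adjusted by TMM as for all genes named below, was 161, 167 and 161 with gRNA2, 125, 125 and 113 with gRNA1 and 143, 144 and 146 in controls. None of the 3 groups overlapped another, and the control level lay between those of the guides. The level with gRNA2 was 1.13-fold (95% interval 1.06 to 1.20) of the control and 1.35-fold (95% interval 1.27 to 1.43) of gRNA1, and the level with gRNA1 was 0.840-fold (95% interval 0.789 to 0.894) of the control. Both folds against the control use the same 3 control libraries.

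ASNS was further above the control with gRNA2 on transcripts that keep an intron than on its others. The share of ASNS reads that the authors' quantification gave to its 3 annotated retained-intron transcripts was 11.7, 15.0 and 13.5% with gRNA2, 8.63, 8.13 and 7.26% with gRNA1 and 7.40, 7.51 and 7.22% in controls. Every gRNA2 library lay above every other library. Those transcripts amounted to 21.9 ± 3.06 CPM with gRNA2, 9.72 ± 1.32 with gRNA1 and 10.6 ± 0.146 in controls (SD, n = 3 each). All other ASNS transcripts summed to 141 ± 1.63 CPM with gRNA2, 111 ± 5.30 with gRNA1 and 134 ± 1.82 in controls. The ratio of gRNA2 to control was 2.06 on the retained-intron transcripts and 1.06 on the rest. With retained-intron reads left out of every gene, an alternative added after the data were seen, the log2 fold of ASNS between gRNA2 and control was 0.09, against 0.18 with them, and it no longer passed the threshold.

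Reads of ASNS also moved between its coding transcripts. The 1994-base ASNS-202 took 58.9% ± 6.48 of the reads with gRNA2, 71.8% ± 3.66 with gRNA1 and 76.7% ± 5.91 in controls, and the 1588-base ASNS-214 took 13.8% ± 4.68, 8.36% ± 2.99 and 4.78% ± 4.32 in the same order (SD, n = 3 each). The second of these ran from 0% to 8.40% over the controls. Per unit of length, in TPM (reads divided by transcript length and scaled to a common total, by the authors), ASNS stood further apart than in CPM: the ratio of means was 1.396 for gRNA2 to control, 0.891 for gRNA1 to control and 1.57 for gRNA2 to gRNA1. With an offset for transcript length in the fit, the log2 fold between gRNA2 and control was 0.42. A further limit is the noncoding gene AC079781.5, which overlaps ASNS on the same strand and holds most of the 42.69% of ASNS 31-base words found in another gene. It had 50 to 230 reads per library, and with its reads added the ratios were 1.14 for gRNA2 to control, 0.867 for gRNA1 to control and 1.32 for gRNA2 to gRNA1.

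**Figure D1:**
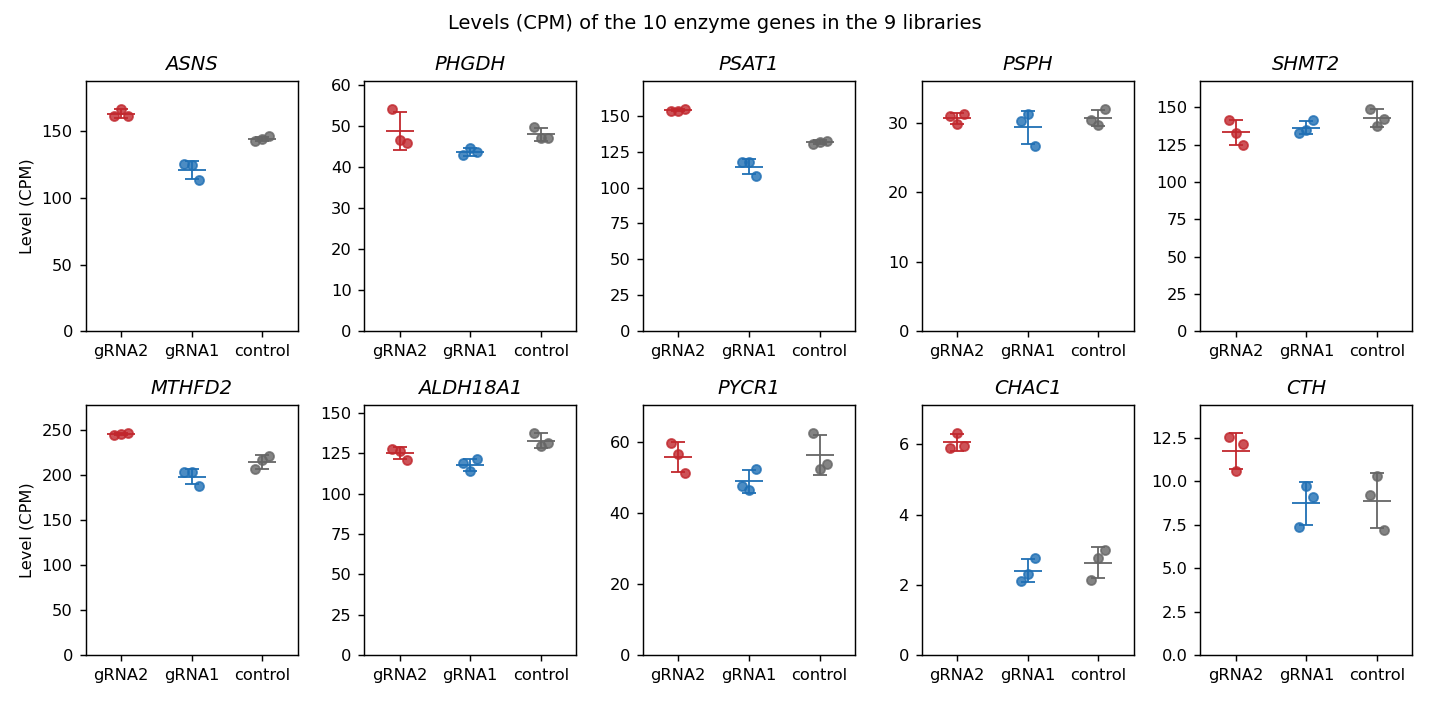
Level in CPM of each enzyme gene, with 1 panel per gene, a vertical axis from 0 and 1 point per library (3 per group), the bar and whiskers giving mean ± SD. ASNS, PSAT1 and MTHFD2 lie in 3 separate bands, and CHAC1 is set apart by the gRNA2 libraries at 5.90, 6.34 and 5.95 CPM.

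In the serine route, by CPM, the middle enzyme was higher with gRNA2 and the enzymes on either side of it stayed near the control. PHGDH (ENSG00000092621.12, chr1:119648411-119744226, plus strand), the dehydrogenase that commits a glycolytic phosphoglycerate to serine, had 54.3, 46.6 and 45.8 CPM with gRNA2, 43.0, 44.8 and 43.6 with gRNA1 and 49.9, 47.0 and 47.3 in controls. The gRNA1 libraries lay below all others, and gRNA2 overlapped the control through 1 high library, replicate 1. The fold was 1.02-fold (95% interval 0.934 to 1.12) for gRNA2 to control, 0.912-fold (95% interval 0.834 to 0.999) for gRNA1 to control and 1.12-fold (95% interval 1.02 to 1.22) for gRNA2 to gRNA1. Without gRNA2 replicate 1 the log2 fold between gRNA2 and control was -0.05, against 0.03 with it, and that between gRNA2 and gRNA1 was 0.08, against 0.16. Per unit of length PHGDH was not near the control: it had 41.4, 41.0 and 38.6 TPM with gRNA2, against 34.9, 35.3 and 32.8 in controls. That ratio of means was 1.175, beside 1.216 for PSAT1, and it was 0.926 on coding transcripts of PHGDH alone.

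PSAT1 (ENSG00000135069.13, chr9:78297143-78330093, plus strand), the aminotransferase of the second step, had 154, 154 and 155 CPM with gRNA2, 118, 118 and 108 with gRNA1 and 130.2, 132 and 133 in controls. The groups did not overlap and kept the order seen for ASNS. The fold was 1.17-fold (95% interval 1.10 to 1.24) for gRNA2 to control, 0.871-fold (95% interval 0.822 to 0.924) for gRNA1 to control and 1.34-fold (95% interval 1.27 to 1.42) for gRNA2 to gRNA1. A single coding transcript, PSAT1-202, took 97.2% ± 0.717, 97.2% ± 1.08 and 98.5% ± 0.609 of its reads in gRNA2, gRNA1 and control libraries, and none of its transcripts is annotated with a retained intron. Its processed copies share 15.4% of its 31-base words, but the nearest of them had 0 or 1 read per library. Without gRNA1 replicate 3, the lowest library, the log2 fold of PSAT1 between gRNA1 and control was -0.16, against -0.20 with it.

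PSPH (ENSG00000146733.13, chr7:56011051-56051604, minus strand), the phosphatase that releases serine, had 30.97, 29.8 and 31.3 CPM with gRNA2, 30.3, 31.3 and 26.7 with gRNA1 and 30.5, 29.7 and 32.0 in controls. All 3 groups overlapped. The interval of the fold ran from 0.909 to 1.10 for gRNA2 to control and from 0.872 to 1.05 for gRNA1 to control. A change of PSPH as large as that of PSAT1 with gRNA2 (1.17-fold) lies outside the first of these intervals.

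The share of reads on retained-intron transcripts was also higher with gRNA2 for PHGDH. Its 7 retained-intron transcripts took 20.4, 30.4 and 30.1% of its reads with gRNA2, 16.3, 17.3 and 14.8% with gRNA1 and 16.7, 13.9 and 14.3% in controls. The gRNA2 libraries lay above all others, and gRNA1 overlapped the control. On these transcripts PHGDH had 13.0 ± 1.70 CPM with gRNA2, 7.08 ± 0.653 with gRNA1 and 7.21 ± 0.965 in controls. On its other transcripts it had 35.9 ± 6.32 CPM with gRNA2, 36.7 ± 0.665 with gRNA1 and 40.8 ± 0.593 in controls (SD, n = 3 each). A near-level sum for PHGDH with gRNA2 held a ratio of 1.80 on one class and 0.880 on the other. With retained-intron reads left out, its log2 fold between gRNA2 and control was -0.17.

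Over all genes the share of reads on retained-intron transcripts was 6.63, 6.62 and 6.56% with gRNA2, 6.38, 6.37 and 6.36% with gRNA1 and 6.22, 6.19 and 6.17% in controls. It was thus higher than in controls with both guides, and highest with gRNA2. The rise with gRNA2 was smaller than in ASNS and PHGDH. Among 6238 genes with at least 100 reads in every library and a retained-intron transcript, the median difference between gRNA2 and control was 0.452 percentage points, against 6.04 for ASNS and 12.0 for PHGDH. A larger difference was found in 2.77% of those genes for ASNS and in 0.273% for PHGDH. All 3 gRNA2 libraries lay above all 3 controls in 16.5% of the genes. SHMT2 went the other way with gRNA1, with 6.71, 6.35 and 4.72% in gRNA2 and 3.35, 3.31 and 3.52% in gRNA1 libraries, against 5.84, 4.85 and 4.33% in controls. All 3 gRNA1 libraries lay below all 3 controls in 3.86% of genes and above them in 10.0%. All 3 gRNA2 libraries lay above all 3 of gRNA1 in 11.1% of genes and below them in 3.77%. For PSPH the share was 3.58, 3.55 and 3.40% with gRNA2, 2.80, 3.95 and 3.88% with gRNA1 and 2.02, 3.02 and 3.40% in controls. The files do not show whether these reads come from spliced transcripts that keep an intron or from unspliced RNA.

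**Figure D2:**
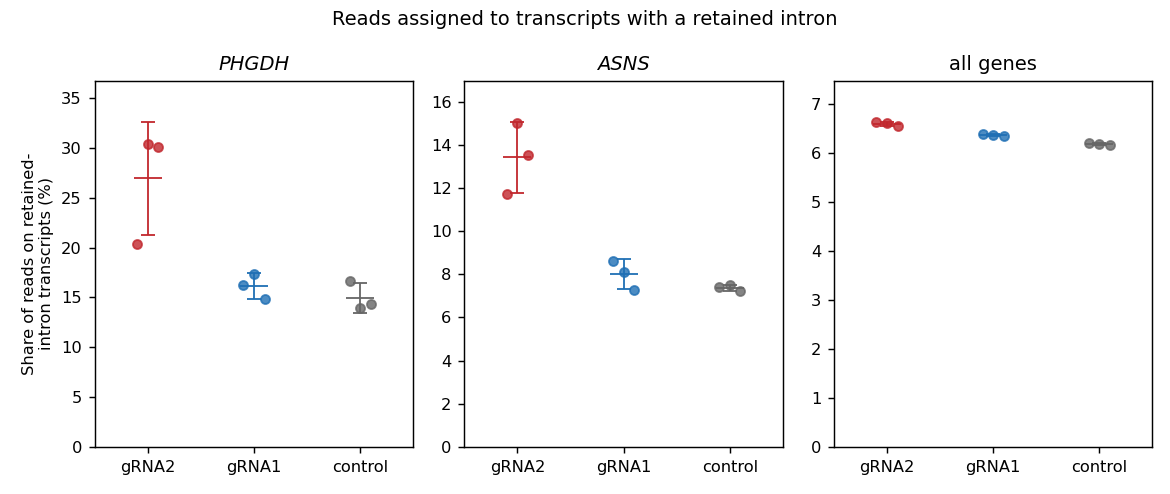
Share of reads (percent, axes from 0 and scaled per panel) on transcripts annotated with a retained intron, for PHGDH, ASNS and all genes, with 1 point per library and mean ± SD in each group of 3. The gRNA2 libraries lie highest in each panel, from 20.4% to 30.4% for PHGDH.

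Of the mitochondrial folate enzymes, MTHFD2 was higher with gRNA2 and SHMT2 was not. MTHFD2 (ENSG00000065911.11, chr2:74198562-74217565, plus strand), a dehydrogenase and cyclohydrolase scarce in most adult tissues and abundant in tumours, had 244, 245 and 247 CPM with gRNA2, 203, 203 and 188 with gRNA1 and 206, 217 and 220.2 in controls. The groups did not overlap. The fold was 1.14-fold (95% interval 1.08 to 1.21) for gRNA2 to control, 0.923-fold (95% interval 0.870 to 0.980) for gRNA1 to control and 1.24-fold (95% interval 1.17 to 1.31) for gRNA2 to gRNA1. Its coding transcripts MTHFD2-201 and MTHFD2-203 took 37.8% ± 0.772 and 30.8% ± 0.364 with gRNA2, 37.9% ± 1.48 and 27.5% ± 2.26 with gRNA1, and 39.0% ± 0.525 and 28.4% ± 1.02 in controls. For MTHFD2-203 the share in each gRNA2 library lay above that in every other library. MTHFD2 shares 39.23% of its 31-base words with other genes, mostly SLC4A5 on the opposite strand. SLC4A5 had 24 to 55 reads per library, and with them added the ratios were 1.15 for gRNA2 to control and 0.928 for gRNA1 to control.

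SHMT2 (ENSG00000182199.10, chr12:57229327-57234935, plus strand), the mitochondrial serine hydroxymethyltransferase, had 142, 133 and 125 CPM with gRNA2, 133, 135 and 141 with gRNA1 and 149, 137 and 142 in controls. The groups overlapped in each comparison. The fold was 0.935-fold (95% interval 0.870 to 1.01) for gRNA2 to control, 0.956-fold (95% interval 0.889 to 1.03) for gRNA1 to control and 0.979-fold (95% interval 0.910 to 1.05) for gRNA2 to gRNA1. It was the only member with a fold below 1 for gRNA2 to gRNA1. A large part of its reads sat on 2 transcripts annotated for nonsense-mediated decay: SHMT2-226 took 23.3% ± 3.26, 28.8% ± 2.16 and 23.2% ± 2.69, and SHMT2-231 took 19.4% ± 6.33, 21.1% ± 2.59 and 17.4% ± 8.42, in gRNA2, gRNA1 and control libraries (SD, n = 3 each).

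The proline enzymes were at or below the control with both guides. ALDH18A1 (ENSG00000059573.8, chr10:95605929-95656706, minus strand), which turns glutamate into the semialdehyde that leads to proline, had 128, 127 and 121 CPM with gRNA2, 119, 114 and 121 with gRNA1 and 138, 129 and 131 in controls. Every guide library lay below every control. The fold was 0.943-fold (95% interval 0.887 to 1.00) for gRNA2 to control and 0.888-fold (95% interval 0.836 to 0.944) for gRNA1 to control, and gRNA2 and gRNA1 overlapped at 1.06-fold (95% interval 0.999 to 1.13). Per unit of length the ratios were 1.05 and 0.975 against the control, and with the length offset the log2 fold between gRNA1 and control was -0.06, against -0.17 in CPM.

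PYCR1 (ENSG00000183010.16, chr17:81932384-81942412, minus strand), the mitochondrial reductase that finishes proline, had 59.8, 56.7 and 51.3 CPM with gRNA2, 47.7, 46.7 and 52.6 with gRNA1 and 62.8, 52.4 and 54.0 in controls. The gRNA1 libraries overlapped the controls by 1 library, and gRNA2 overlapped both. The fold was 0.998-fold (95% interval 0.896 to 1.11) for gRNA2 to control, 0.870-fold (95% interval 0.780 to 0.971) for gRNA1 to control and 1.15-fold (95% interval 1.03 to 1.28) for gRNA2 to gRNA1. Control replicate 1 was the highest of all 9 libraries, and without it the log2 fold was 0.08 for gRNA2 to control and -0.12 for gRNA1 to control, against 0.00 and -0.20 with it.

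CHAC1 (ENSG00000128965.12, chr15:40952962-40956519, plus strand), a glutathione-degrading enzyme and a sensitive target of ATF4 and CHOP, was the member furthest apart. It had 5.90, 6.34 and 5.95 CPM with gRNA2, 2.12, 2.31 and 2.76 with gRNA1 and 2.14, 2.77 and 2.99 in controls, from 143, 166 and 99 reads, 43, 54 and 56 reads and 40, 68 and 65 reads. Each gRNA2 library stood above every other library, and gRNA1 and control overlapped. The fold was 2.29-fold (95% interval 1.86 to 2.81) for gRNA2 to control, 0.902-fold (95% interval 0.712 to 1.14) for gRNA1 to control and 2.53-fold (95% interval 2.05 to 3.13) for gRNA2 to gRNA1. None of its 31-base words occurs in another gene.

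CTH (ENSG00000116761.11, chr1:70411218-70439851, plus strand), the last enzyme of transsulfuration, had 12.6, 10.6 and 12.1 CPM with gRNA2, 7.34, 9.73 and 9.11 with gRNA1 and 9.20, 10.3 and 7.17 in controls. The gRNA2 libraries lay above all others, and gRNA1 and control overlapped. The fold was 1.32-fold (95% interval 1.08 to 1.60) for gRNA2 to control, 0.982-fold (95% interval 0.803 to 1.20) for gRNA1 to control and 1.34-fold (95% interval 1.10 to 1.63) for gRNA2 to gRNA1. The controls spread widely for this gene: the log2 fold of gRNA2 to control was 0.53 without control replicate 2 and 0.26 without control replicate 3, against 0.40 with all.

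**Figure D3:**
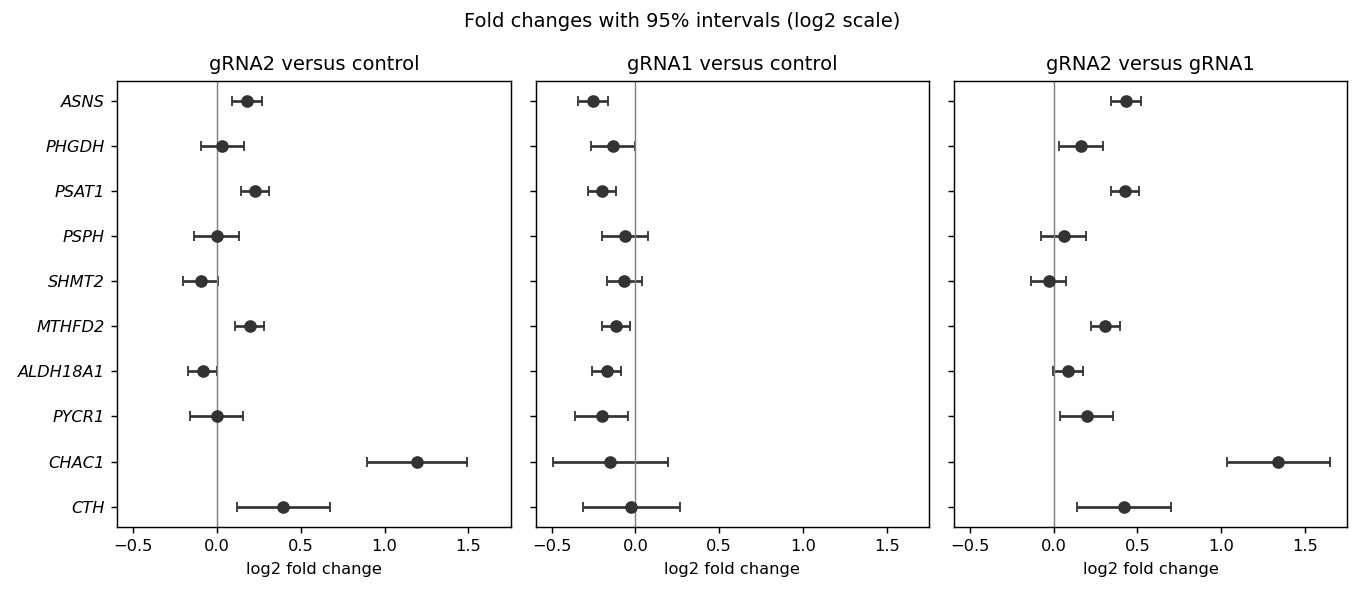
Fold change on a log2 axis for the 10 enzyme genes, with 95% intervals from the fit of all 9 libraries, for gRNA2 versus control (left), gRNA1 versus control (middle, sharing the controls with the left panel) and gRNA2 versus gRNA1 (right). In the middle panel every point lies left of 0, between -0.25 and -0.03; in the right panel SHMT2 alone lies left of 0.

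Across the members, the folds of gRNA2 to control ran from 0.935 for SHMT2 to 2.29 for CHAC1, with a median log2 of 0.10, against 0.01 over all genes tested. Those of gRNA1 to control ran from 0.840 for ASNS to 0.982 for CTH, with a median log2 of -0.14, against 0.00 over all genes. Between gRNA2 and gRNA1 the median log2 was 0.25, against 0.00. For gRNA2 against control, 4 members passed an adjusted p of 0.05 over all genes (ASNS, PSAT1, MTHFD2 and CHAC1, all higher), where 8.44% of all genes passed in either direction and 3.69% were higher. For gRNA1 against control, 3 passed (ASNS, PSAT1 and ALDH18A1, all lower), where 7.08% of all genes passed, 3.49% higher and 3.58% lower. Between the guides, ASNS, PSAT1, MTHFD2 and CHAC1 passed, all 4 higher with gRNA2, where 6.22% of all genes passed, 3.12% higher and 3.1% lower. The members were chosen with these contrasts known, so nothing is read from these counts. The gRNA2 count against control was 2 without gRNA2 replicate 2 (ASNS and MTHFD2 left it) and 3 without control replicate 1 or 3 (ASNS left it). It was 4 without control replicate 2, where ASNS left it and CTH entered, so ASNS did not pass without any 1 of the controls. The gRNA1 count was 2 without control replicate 1 or 3 or gRNA1 replicate 1 or 2 (ALDH18A1 left it), and 1, PSAT1, with the transcript length offset. Between the guides the count was 5 with the transcript length offset, where PHGDH entered.

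The members also differed among themselves in how single libraries placed. The mean of the 10 centred log2 levels, as a difference from the control mean, was 0.24, 0.19 and 0.17 with gRNA2, -0.17, -0.11 and -0.13 with gRNA1, and 0.00, 0.01 and -0.01 in controls. Over the 9 libraries, PSAT1 followed the mean of the other members most closely (r = 0.948), then MTHFD2 (r = 0.919) and ASNS (r = 0.910), and SHMT2 ran against it (r = -0.221). These correlations mostly carry the difference between groups. With each group centred on its own mean, r was -0.353 for PSAT1, -0.387 for MTHFD2 and -0.404 for ASNS. It was 0.506 for SHMT2 and 0.706 for PHGDH, and ran from -0.490 (CHAC1) to 0.0233 (ALDH18A1) for the rest. The library gRNA1 replicate 3 was the lowest of all for ASNS, PSAT1, MTHFD2 and PSPH and the highest gRNA1 library for SHMT2, ALDH18A1, PYCR1 and CHAC1. It also had the largest share of mitochondrial reads (6.61%, against 5.37% to 6.20% in the other libraries), whose part in these values was not tested. Without it the log2 fold of ASNS between gRNA1 and control was -0.21, against -0.25, and that of PSPH was 0.00, against -0.06.

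Set per unit of length, so that genes can be compared, MTHFD2 was the most abundant member in every group, at 164 ± 1.61 TPM with gRNA2, 126 ± 5.89 with gRNA1 and 134 ± 6.30 in controls (SD, n = 3 each). ASNS came next with gRNA2 (125 ± 2.90 TPM), clear of SHMT2 (88.2 ± 1.399). In the gRNA1 libraries ASNS (80.0 ± 7.54) and SHMT2 (85.1 ± 2.50) overlapped, and they did so in controls (89.8 ± 2.24 and 88.0 ± 3.60). PSAT1 stood at 75.3 ± 2.10 TPM with gRNA2, 55.3 ± 4.18 with gRNA1 and 61.9 ± 1.07 in controls. PYCR1 followed at 61.3 ± 2.90, 52.3 ± 12.6 and 60.0 ± 3.23, apart from PSAT1 with gRNA2 and overlapping it in the other groups. The 377-base transcript PYCR1-212 took 0% to 11.2% of the PYCR1 reads with gRNA1.

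Below them came ALDH18A1 at 40.4 ± 2.97 TPM with gRNA2, 37.6 ± 2.67 with gRNA1 and 38.6 ± 1.35 in controls. PHGDH was at 40.3 ± 1.55, 31.7 ± 1.76 and 34.3 ± 1.36, overlapping ALDH18A1 with gRNA2 alone. PSPH, at 30.2 ± 2.58, 28.2 ± 2.99 and 28.6 ± 1.42, overlapped PHGDH with gRNA1 alone. The scarce members were CTH, at 10.1 ± 1.39, 7.07 ± 1.15 and 7.64 ± 0.969 TPM, and CHAC1, at 5.19 ± 0.833, 2.07 ± 0.187 and 2.12 ± 0.596 TPM. In controls MTHFD2 exceeded 97.4% of the genes tested and CHAC1 exceeded 31.5%; with gRNA2 CHAC1 exceeded 44.4%.

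TPM depends on which transcripts are counted. Summed over coding transcripts alone, MTHFD2 had 71.4 TPM with gRNA2, 53.8 with gRNA1 and 58.7 in controls, below ASNS at 96.1, 66.3 and 75.5. PHGDH had 21.4, 21.9 and 23.1 TPM on coding transcripts in gRNA2, gRNA1 and control libraries, so with gRNA2 it lay above the control over all transcripts and below it on coding transcripts. The ratio of gRNA2 to control on coding transcripts was 1.27 for ASNS, 1.22 for PSAT1, 1.22 for MTHFD2 and 2.45 for CHAC1.

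**Figure D4:**
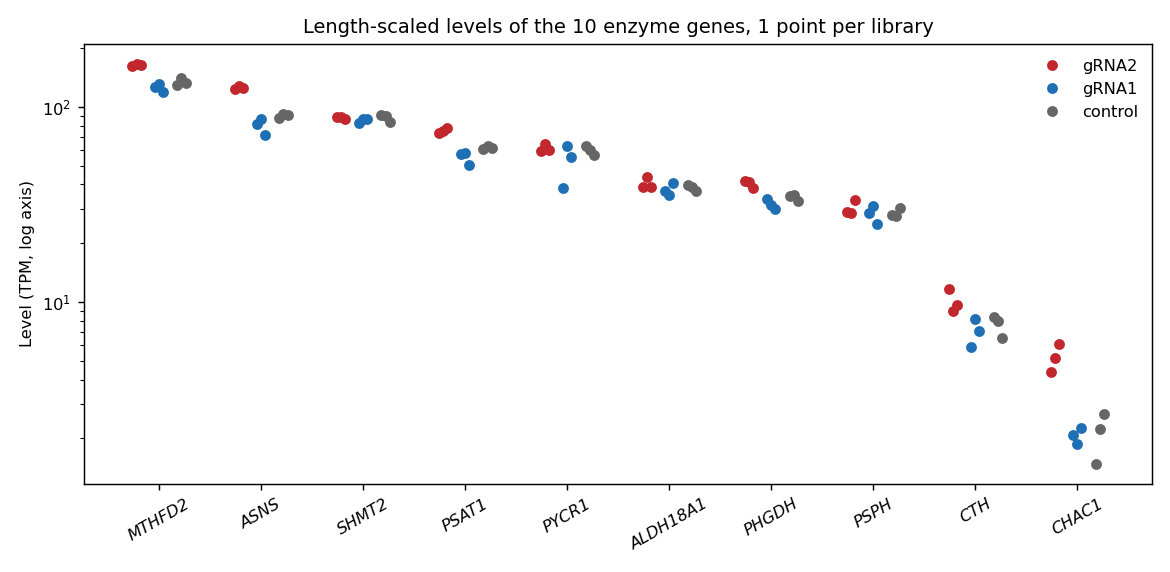
Level of each enzyme gene in TPM on a log axis, with 1 point per library, genes ordered by their control mean and groups side by side. MTHFD2 is highest throughout and CHAC1 lowest, and the gRNA2 points stand above the others for MTHFD2, ASNS, PSAT1, PHGDH, CTH and CHAC1.

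Genes next to the members in metabolism were taken from lists, also chosen with earlier results of these data known, and tested over all 19658 genes with edgeR's quasi-likelihood test and Benjamini-Hochberg adjustment. A gene is said to rise or fall where its adjusted p was under 0.05. Over all genes 3.69% rose and 4.75% fell with gRNA2 against control, 3.49% rose and 3.58% fell with gRNA1 against control, and 3.12% were higher and 3.1% lower with gRNA2 than with gRNA1; list counts near these shares are not a result about a list. Counts of 0 below were 0 to 3 at an unadjusted p under 0.05, and they were 0 by DESeq2 except for 1 riser with gRNA1 in the first list and 1 with gRNA2 in the third.

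Of 23 other genes of serine, glycine and folate metabolism, 2 rose and 3 fell with gRNA2 against control, where 3.69% and 4.75% of all genes did, with a median log2 of -0.05. TYMS, thymidylate synthase, fell to 25.6, 24.9 and 26.2 CPM with gRNA2, against 33.2, 30.7 and 30.9 in controls (0.809-fold (95% interval 0.743 to 0.881), adjusted p = 0.00483). With the transcript length offset its adjusted p was 0.183, and 0 genes of the list fell. DLD also fell, a subunit of the glycine cleavage system, named after its values were seen (0.898-fold (95% interval 0.841 to 0.960), adjusted p = 0.0463), a call that also ended without any 1 control, gRNA1 replicate 1 or 2 or gRNA2 replicate 2 or 3. TYMS is also known as an S-phase gene, and 22 of 23 genes of G2 and mitosis fell in the same libraries, whose part in its fold was not tested.

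ALDH1L2, the mitochondrial enzyme that oxidises formyl-tetrahydrofolate downstream of MTHFD2, rose with gRNA2 to 41.9, 43.0 and 42.2 CPM, against 35.0, 37.7 and 33.9 in controls (1.19-fold (95% interval 1.10 to 1.29), adjusted p = 0.00863). That call ended with the length offset, with retained-intron reads left out or without gRNA2 replicate 2 or control replicate 3 (adjusted p from 0.0515 to 0.270). With gRNA1 against control 0 of the 23 rose and 0 fell. Between the guides 2 genes were higher with gRNA2, ALDH1L2 among them (1 without gRNA1 replicate 2), and 3 lower, TYMS and MTHFD1 among them. MTHFD1, the cytosolic folate enzyme, had 228, 226 and 222 CPM with gRNA2, against 258, 255 and 261 with gRNA1 (0.873-fold (95% interval 0.832 to 0.916), adjusted p = 0.00216, and 0.195 with the length offset).

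The 4 paralogs of members described here did not pass the threshold in any of the 3 comparisons. SHMT1, the cytosolic counterpart of SHMT2, was at 0.912-fold (95% interval 0.848 to 0.980) for gRNA2 to control, and passed with retained-intron reads left out (adjusted p = 0.00992, lower). MTHFD2L, the paralog of MTHFD2, was at 1.20-fold (95% interval 1.04 to 1.38) for gRNA2 and 1.25-fold (95% interval 1.09 to 1.43) for gRNA1 against control (adjusted p = 0.101 and 0.0536), and the gRNA1 value passed with no filter, with the replicate block and with coding genes alone (adjusted p from 0.0377 to 0.0465). PYCR3, a paralog of PYCR1, was at 1.11-fold (95% interval 0.900 to 1.37) with gRNA2. CHAC2, the constitutive relative of CHAC1, was at 1.11-fold (95% interval 0.841 to 1.47) with gRNA2 and 1.42-fold (95% interval 1.08 to 1.87) with gRNA1.

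Around asparagine, glutamate and proline, 1 of 16 genes rose and 1 fell with gRNA2 against control, counts near the 3.69% and 4.75% of all genes. GPT2, a mitochondrial alanine aminotransferase, rose 1.21-fold (95% interval 1.11 to 1.32) (adjusted p = 0.00986), a call that ended with the length offset, with retained-intron reads left out or without gRNA2 replicate 2 or control replicate 3 (adjusted p from 0.0562 to 0.255). GOT2, the mitochondrial aspartate aminotransferase, fell, to 0.905-fold (95% interval 0.858 to 0.954) of the control (adjusted p = 0.0230), a call that ended with the length offset or without gRNA2 replicate 2 or 3 or control replicate 1, 2 or 3 (adjusted p from 0.0557 to 0.189). With gRNA1 1 rose and 2 fell. Glutamine synthetase, GLUL, had 39.6, 41.1 and 38.6 CPM with gRNA2 and rose with gRNA1 to 44.4, 47.7 and 50.0 CPM, against 37.7, 38.2 and 40.3 in controls (with gRNA1 1.22-fold (95% interval 1.13 to 1.32), adjusted p = 0.00455). GLUD1, glutamate dehydrogenase, fell, to 0.884-fold (95% interval 0.838 to 0.931) of the control (adjusted p = 0.00746, and 0.0648 with the length offset), and GOT1, the cytosolic aspartate aminotransferase, fell, to 0.878-fold (95% interval 0.823 to 0.936) of the control (adjusted p = 0.0176), a call that ended with the length offset or without gRNA1 replicate 1 or 3 or control replicate 1, 2 or 3 (adjusted p from 0.0576 to 0.103). Between gRNA2 and gRNA1, GPT2 was higher (1.19-fold (95% interval 1.09 to 1.29), adjusted p = 0.0214), a call that ended with the length offset, with retained-intron reads left out or without gRNA2 replicate 2 or gRNA1 replicate 2 or 3 (adjusted p from 0.0742 to 0.519). GOT2 and GLUL were lower with gRNA2 than with gRNA1 (0.884-fold and 0.841-fold, adjusted p = 0.00851 and 0.0117), and the GLUL call ended with the length offset or without gRNA1 replicate 2 (adjusted p from 0.0504 to 0.276) and the GOT2 call with the length offset (adjusted p = 0.0701).

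Around methionine, transsulfuration and glutathione, 0 of 18 genes rose and 1 fell with gRNA2, and 0 rose and 2 fell with gRNA1. AHCY, which clears S-adenosylhomocysteine, fell, to 0.883-fold (95% interval 0.832 to 0.937) of the control with gRNA2 (adjusted p = 0.0132), a call that ended with the length offset or without gRNA2 replicate 2 or 3 or control replicate 1 or 3 (adjusted p from 0.0504 to 0.0821). With gRNA1 GSS, glutathione synthetase, fell, to 0.867-fold (95% interval 0.807 to 0.931) of the control (adjusted p = 0.0190), a call that ended with the length offset, with retained-intron reads left out or without gRNA1 replicate 1 or 3 or control replicate 1, 2 or 3 (adjusted p from 0.0513 to 0.214). MAT2A, which makes S-adenosylmethionine, had 293, 305 and 304 CPM with gRNA2 and fell with gRNA1 to 252, 258 and 245, against 277, 281 and 279.8 in controls. Its fold was 0.901-fold (95% interval 0.857 to 0.947) for gRNA1 (adjusted p = 0.0147), a call that ended with the length offset or without control replicate 2 or 3 (adjusted p from 0.0631 to 0.0846), and 1.20-fold (95% interval 1.14 to 1.26) for gRNA2 to gRNA1 (adjusted p = 3.88e-04). The other call between the guides was GCLM, the regulatory subunit of the enzyme that starts glutathione synthesis, at 0.842-fold (95% interval 0.771 to 0.920) (adjusted p = 0.0229), which ended with the length offset or without gRNA2 replicate 1 or 2 or gRNA1 replicate 1 or 2 (adjusted p from 0.0546 to 0.172). The cystathionine synthase CBS, which feeds CTH, was at 0.996-fold (95% interval 0.934 to 1.06) with gRNA2 and 0.908-fold (95% interval 0.851 to 0.969) with gRNA1 (adjusted p = 0.958 and 0.0721).

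Of 25 genes of ATF4, CHOP and the genes around them, 11 rose and 1 fell with gRNA2 against control, where 3.69% and 4.75% of all genes did, with a median log2 of 0.12. ATF4 itself had 237, 229 and 224 CPM with gRNA2, 208, 204 and 218 with gRNA1 and 227, 210.0 and 220.1 in controls, and did not pass the threshold in any comparison (1.05-fold (95% interval 0.989 to 1.12) and 0.958-fold (95% interval 0.902 to 1.02) against control). DDIT3, which encodes CHOP, rose to 41.5, 39.5 and 40.3 CPM with gRNA2 and was at 18.7, 19.6 and 23.7 with gRNA1, against 22.8, 22.3 and 22.3 in controls (with gRNA2 1.80-fold (95% interval 1.61 to 2.00), adjusted p = 1.15e-05). ATF3, a stress-induced factor, rose 1.58-fold (95% interval 1.45 to 1.73) (adjusted p = 1.66e-05), and DDIT4, an inhibitor of mTORC1 signalling, rose 1.59-fold (95% interval 1.45 to 1.74) (adjusted p = 2.24e-05). GDF15, a secreted stress cytokine, rose 1.77-fold (95% interval 1.55 to 2.02) (adjusted p = 7.76e-05). The number that rose was 8 to 12 as each library was left out, and 6 with the length offset. The gene that fell was VLDLR, a lipoprotein receptor (0.813-fold, adjusted p = 0.0184), named after its values were seen, and that count was 0 without gRNA2 replicate 2, control replicate 1 or control replicate 3, and 2 without gRNA2 replicate 1.

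With gRNA1 against control, 0 of the 25 rose and 4 fell (ATF3, PPP1R15A, STC2 and XBP1), where 3.49% and 3.58% of all genes did. PPP1R15A, which recruits the phosphatase of eIF2, was at 0.850-fold (95% interval 0.789 to 0.917) (adjusted p = 0.0125), a call that ended with the length offset or without gRNA1 replicate 1 or control replicate 2 or 3 (adjusted p from 0.0557 to 0.0721). The number that fell was 0 without control replicate 2, 1 without control replicate 3 or gRNA1 replicate 1 or 2, and 2 without control replicate 1 or gRNA2 replicate 2. Between the guides, 12 of 25 were higher with gRNA2 and 0 lower, where 3.12% and 3.1% of all genes were, and DDIT3 stood at 1.96-fold (95% interval 1.76 to 2.18) (adjusted p = 3.60e-06).

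Of 16 tested transporters that carry amino acids, 4 rose and 0 fell with gRNA2 against control, 0 rose and 3 fell with gRNA1, and 8 were higher and 0 lower with gRNA2 than with gRNA1. Over all genes 3.69% rose with gRNA2, 3.58% fell with gRNA1 and 3.12% were higher with gRNA2 than with gRNA1. SLC7A11, which imports cystine for glutathione, rose to 174, 185 and 195 CPM with gRNA2, against 134, 149 and 143 in controls (1.30-fold (95% interval 1.18 to 1.43), adjusted p = 0.00241, and 0.0628 with the length offset). SLC1A4 and SLC1A5, which both carry serine, were higher with gRNA2 than with gRNA1 (1.33-fold and 1.33-fold, adjusted p = 0.00136 and 6.36e-04, and 0.319 for SLC1A4 with the length offset). SLC3A2, the shared heavy chain, fell with gRNA1 to 106, 107 and 106 CPM, against 137, 123 and 128 in controls (0.824-fold (95% interval 0.768 to 0.886), adjusted p = 0.00319). The gRNA2 count was 2 without gRNA2 replicate 2 or control replicate 2 and by DESeq2, and 1 with the length offset. The gRNA1 count was 1 without any 1 control or without gRNA1 replicate 1 or 2, and 6 by DESeq2. The count between the guides was 5 without gRNA2 replicate 2 or gRNA1 replicate 2.

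Among 20 cytosolic tRNA synthetases, several of them known ATF4 targets, 3 rose and 2 fell with gRNA2 against control, 0 rose and 2 fell with gRNA1, and 8 were higher and 1 lower with gRNA2 than with gRNA1. AARS1, for alanine, rose 1.17-fold (95% interval 1.11 to 1.24) with gRNA2 (adjusted p = 0.00132) and stood at 1.21-fold (95% interval 1.15 to 1.27) of gRNA1 (adjusted p = 3.77e-04). The synthetase for asparagine, NARS1, was at 0.984-fold (95% interval 0.933 to 1.04) with gRNA2 and that for serine, SARS1, at 1.08-fold (95% interval 1.02 to 1.14), neither past the threshold. With retained-intron reads left out AARS1 alone rose with gRNA2. The counts that fell were 0 without gRNA2 replicate 2 or control replicate 1 or 3 in the gRNA2 comparison, and 0 to 1 in the gRNA1 comparison without any 1 control, any 1 gRNA1 library or gRNA2 replicate 2. The counts between the guides were 3 higher without gRNA1 replicate 2, 5 higher without gRNA2 replicate 2, and 0 lower without any 1 library other than gRNA2 replicate 3.

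Endoplasmic reticulum chaperones, targets of other arms of the stress response, fell more often than they rose: 1 of 17 rose and 7 fell with gRNA2, 0 rose and 7 fell with gRNA1, and 3 were higher and 0 lower with gRNA2 than with gRNA1. CALR, calreticulin, fell to 487, 481 and 473 CPM with gRNA2 and to 453, 449 and 490.2 with gRNA1, against 598, 571 and 578 in controls (0.824-fold and 0.797-fold, adjusted p = 5.15e-04 and 1.48e-04, and 0.051 for gRNA2 with the length offset). The number that fell with gRNA2 was 2 without gRNA2 replicate 2, 3 without control replicate 2 and 4 without gRNA2 replicate 1 or control replicate 3, and 1 with the length offset. The number that fell with gRNA1 was 3 without control replicate 2 and 4 without gRNA1 replicate 2 or control replicate 3. The gene that rose with gRNA2 was HERPUD1 (1.14-fold, adjusted p = 0.0173), named after its values were seen. That count was 0 without gRNA2 replicate 2 or control replicate 1 or 2, with the length offset, and with retained-intron reads left out. The count between the guides was 1 without gRNA2 replicate 2 or gRNA1 replicate 1 or 2.

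Upstream of PHGDH, 0 of 17 glycolytic enzymes rose and 13 fell with gRNA2 against control, where 4.75% of all genes fell, 0 rose and 7 fell with gRNA1, and 1 was higher (HK2) and 10 lower with gRNA2 than with gRNA1. PGAM1, the mutase that draws on the same phosphoglycerate as PHGDH, fell to 168, 161 and 165 CPM with gRNA2, against 217, 216 and 224 in controls (0.751-fold (95% interval 0.710 to 0.795), adjusted p = 2.01e-05). LDHA, lactate dehydrogenase, fell to 791, 802 and 810.0 CPM, against 1173, 1184 and 1210.3 in controls (0.674-fold (95% interval 0.645 to 0.703), adjusted p = 2.66e-07). The gRNA2 count was 10 to 14 as each library was left out. The gRNA1 count was 2 without gRNA1 replicate 2, 3 without gRNA1 replicate 1 or control replicate 1 or 3, and 4 without gRNA1 replicate 3 or control replicate 2.

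Of 10 tested regulators of serine enzyme genes, MYC, a transcription factor that can drive several of the members, rose with gRNA2 to 341, 334 and 323 CPM and fell with gRNA1 to 190.4, 189 and 197, against 252, 236 and 227 in controls. The groups did not overlap, as for ASNS, PSAT1 and MTHFD2, and the part of MYC in the members' values was not tested. The fold was 1.397-fold (95% interval 1.31 to 1.48) for gRNA2 (adjusted p = 1.15e-05), 0.806-fold (95% interval 0.758 to 0.858) for gRNA1 (adjusted p = 5.43e-04) and 1.73-fold (95% interval 1.63 to 1.84) between the guides (adjusted p = 9.92e-08). The other call in the list was TSC1, an inhibitor of mTORC1, which fell, to 0.905-fold (95% interval 0.859 to 0.953) of the control with gRNA2 (adjusted p = 0.0204), a call that ended with the length offset, with retained-intron reads left out or without gRNA2 replicate 1 or 2 or control replicate 1, 2 or 3 (adjusted p from 0.0578 to 0.581). NFE2L2, which encodes NRF2, was at 1.11-fold (95% interval 1.03 to 1.20) with gRNA2 and 1.03-fold (95% interval 0.952 to 1.10) with gRNA1, neither past the threshold, and without gRNA2 replicate 1 a second regulator rose with gRNA2.

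Proliferation and mitochondrial genes moved in the same libraries. Of 23 genes of G2 and mitosis, 0 rose and 22 fell with gRNA2 against control (CCNB1, the mitotic cyclin, at 0.678-fold, adjusted p = 4.89e-06), 0 rose and 0 fell with gRNA1, and 0 were higher and 20 lower with gRNA2 than with gRNA1. With the length offset 13 fell with gRNA2 and 8 were lower than with gRNA1. Of 13 mitochondrially encoded protein genes, 5 rose and 0 fell with gRNA2, 3 rose and 0 fell with gRNA1, and 0 were higher and 1 lower between the guides. The number that rose with gRNA2 was 2 without gRNA2 replicate 2, 3 without gRNA2 replicate 3 or any 1 control, and 8 without gRNA2 replicate 1 or gRNA1 replicate 3; with gRNA1 it was 5 without gRNA2 replicate 1. Without gRNA1 replicate 3, 4 were higher with gRNA2 than with gRNA1, and 0 were lower without gRNA2 replicate 2 or 3. The part of these groups in the members' values was not tested.

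**Figure D5:**
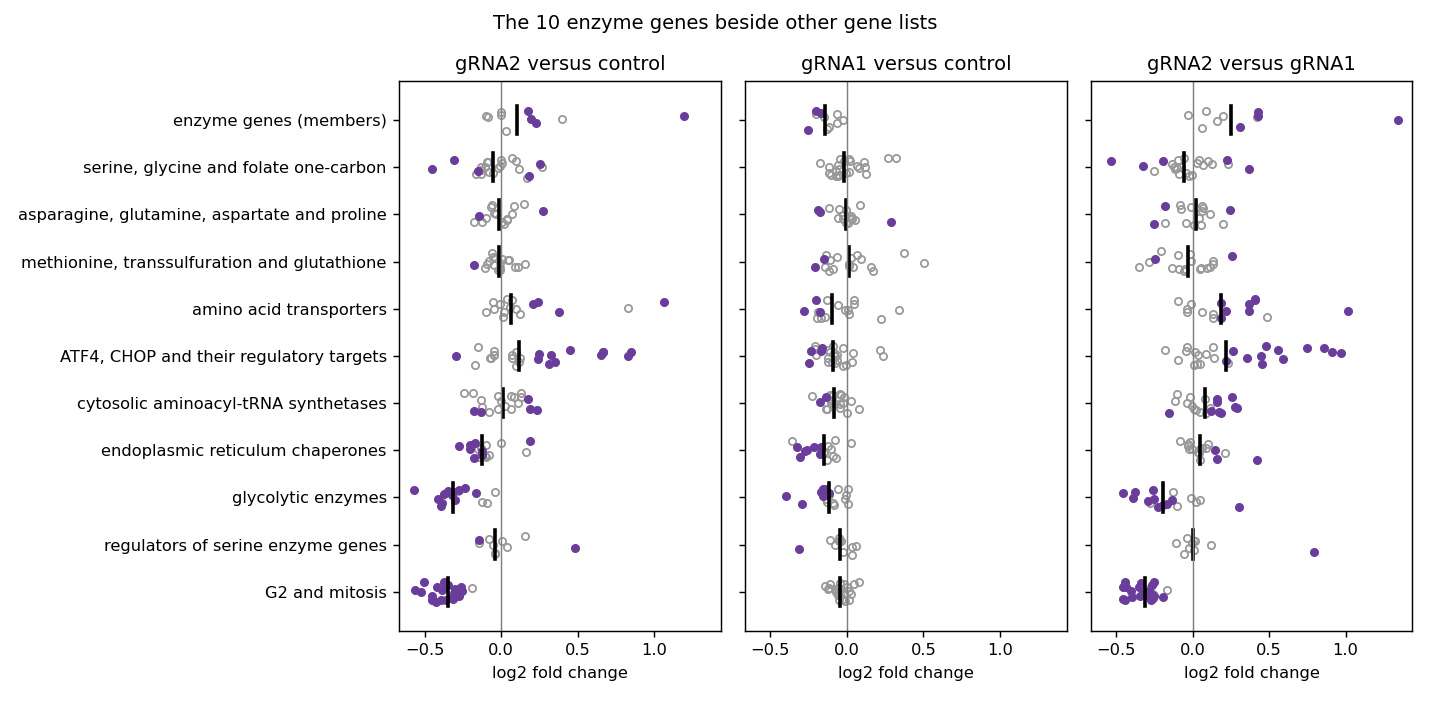
Fold change on a log2 axis of the 10 enzyme genes (top row) and of 10 other gene lists, in gRNA2 versus control (left), gRNA1 versus control (middle) and gRNA2 versus gRNA1 (right), with 1 point per gene, filled where the adjusted p over all genes was under 0.05, and a black line at each median. In the left panel the glycolytic and mitotic medians lie left of 0, at -0.31 and -0.35, and those of the enzymes and of the ATF4 list lie right of it, at 0.10 and 0.12.

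Outside the members, the genes whose level over the 9 libraries was most like the mean of the members were CCN1 (r = 0.988), MYC (0.987), ETS2 (0.983), ATF3 (0.982), AMOTL2 (0.982), PLAU (0.979), STC2 (0.978) and AREG (0.976), out of 10004 coding genes at an average log2 CPM of at least 3. With 9 libraries in 3 groups, such values say mainly that these genes share the order gRNA2, control, gRNA1. CCN1, a matricellular protein, had 266, 264 and 256 CPM with gRNA2, 149.7, 149 and 155 with gRNA1 and 186, 180.5 and 183 in controls. AREG, a ligand of EGFR, had 22.3, 22.3 and 21.5 CPM with gRNA2, 12.9, 12.7 and 14.6 with gRNA1 and 15.9, 17.1 and 16.1 in controls. STC2, a secreted stress-response glycoprotein, had 104, 106 and 106, 73.7, 74.8 and 77.7 and 87.5, 83.8 and 82.3 CPM in gRNA2, gRNA1 and control libraries. In all 3 of these genes the groups did not overlap, which their choice by likeness to the members' mean favours.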

How the data were processed

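Total RNA from 9 libraries was depleted of ribosomal RNA and sequenced, per the labels' protocols. Transcripts were quantified with Salmon 1.4.0 on hg38, per the submitters' processing notes; the strand setting is not given in the sources used here. Per the file headers, the deposited tables hold estimated counts, TPM and effective length for each of 211939 transcripts. Estimated counts were summed to genes by GENCODE 29 names in the reference table (95.7% of transcripts matched, 56823 genes; 1.26% to 1.33% of reads unmatched and left out) and rounded. Genes were filtered with filterByExpr, scaled with TMM and tested with edgeR 4.0.16 (glmQLFit and glmQLFTest, R 4.3.3) in 1 fit of all 9 libraries. Benjamini-Hochberg adjustment was over 19658 genes. The fit was also run on simulated counts drawn independently for each library, and the outcome is not reported here. Such counts cannot show whether the replicates are technical or whether transcript lengths shift. CPM uses TMM-scaled library sizes, and intervals are 95% intervals of the fit. DESeq2 1.42.0, RLE scaling, no filter, a replicate block, a transcript length offset, coding genes alone, the compared groups alone and leaving out each library were alternatives; leaving out retained-intron reads was added after the data were seen. TPM summed by the same genes is the authors' deposited value. Members and lists were chosen with earlier results of these data known. Named genes are the members, their paralogs, up to 4 per list and comparison with the lowest adjusted p, and the 8 most like the members' mean; not all are printed, and some are not reported here. Promoters are RefSeq windows, available here for 7 members. p-values set the difference between groups against the spread between libraries, which may be technical.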

Additional observations from a re-analysis of the deposited data

Results flagged for a closer look

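For 25 genes among the enzymes, the lists and the 8 genes most like the enzymes' mean, the guides lay on opposite sides of the control. Every gRNA2 library lay on one side of all 3 controls, which both comparisons share, and every gRNA1 library on the other. Over all genes tested, all gRNA2 libraries lay above all controls in 13.6% and below in 13.7%, and all gRNA1 libraries in 13.5% and 14.6%. The share with both was not computed, so nothing is read from the count. Not every such gene passed against control with each guide: PLAU had adjusted p = 0.0987 with gRNA1 (edgeR quasi-likelihood test). Among the enzymes, the genes with the guides on opposite sides were ASNS, PSAT1 and MTHFD2, with folds of gRNA2 to gRNA1 of 1.35, 1.34 and 1.24. They were chosen with this difference known, so it is a description. The listed genes outside the enzymes with higher levels with gRNA2 than with gRNA1 were MYC (1.73-fold), ATF3 (1.88), PPP1R15A (1.47), STC2 (1.39), CEBPB (1.37) and CEBPG (1.37), then the transporters SLC1A4 (1.33) and SLC1A5 (1.33), the chaperone DNAJB9 (1.34), the splicing-activated factor XBP1 (1.2), MAT2A (1.2), the synthetases MARS1 (1.22), SARS1 (1.14) and YARS1 (1.11), and MTHFD1L (1.09). Of these 15 genes, MTHFD1L did not pass the test between the guides (edgeR quasi-likelihood test, adjusted p = 0.0744). Of the genes most like the enzymes' mean that are in no list, CCN1 (1.73), AREG (1.65), AMOTL2 (1.46), ETS2 (1.27) and PLAU (1.2) showed the same order, which their choice by likeness favours. MTHFD1 (0.873-fold) and BUB1B, a mitotic checkpoint kinase (0.8-fold), went the other way, with levels lower than control with gRNA2 and higher than control with gRNA1. Against control the folds with gRNA2 and gRNA1 were 0.942 and 1.08 for MTHFD1, and 0.816 and 1.02 for BUB1B. Neither gene passed the threshold with gRNA1 against control.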

How the results depend on the processing

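No member's called fold and no other named gene's called fold changed sign under the alternatives run. An offset for transcript length moved the counts over all genes further than the other alternatives run: the genes changed were 433 for gRNA2 against control (1659 without it), 536 for gRNA1 against control (1391) and 446 for gRNA2 against gRNA1 (1222), and the members past the threshold for gRNA1 against control were 1 (3 without it). Leaving out each library gave 671 to 1817 genes for gRNA2 against control, 654 to 1701 for gRNA1 against control and 575 to 1215 between the guides, and 2 to 4, 2 to 3 and 4 to 5 members in the same order. For gRNA2 against control the count was 671 without gRNA2 replicate 2 and 1023, 900.0 and 792 without control replicates 1, 2 and 3. For gRNA1 against control it was 756 and 654 without gRNA1 replicates 1 and 2, and 826, 786 and 727 without control replicates 1, 2 and 3. Between the guides it was 575 without gRNA2 replicate 2 and 690.0 and 641 without gRNA1 replicates 1 and 2. Deviations from the group mean in libraries with the same replicate number had r = 0.207, 0.0434 and 0.129 for gRNA2 with control. They had r = -0.161, 0.151 and -0.00708 for gRNA1 with control, and -0.0800, 0.106 and -0.0826 between the guides. Across different numbers r ran from -0.254 to 0.236. With 3 libraries per group these values cannot decide whether the numbers pair the libraries. With the replicate block, 1582, 1264 and 1144 genes and 4, 3 and 4 members passed. With no filter on low counts 2354, 2041 and 1777 genes passed, and 5, 4 and 6 members. Of the members' log2 folds under alternatives, 487 moved by less than their standard error and 23 by more. Of the calls of other named genes, 1935 kept their side of the threshold, 233 were lost and 4 were gained; of the list counts, 927 stayed within 1.5 times and 195 did not. Summing coding transcripts alone moved 21 of 30 TPM means by more than their SD. The cause of these shifts was not tested. CHAC1, at 40 to 166 reads per library, had few reads, and DESeq2 gave it no adjusted p for gRNA2 against control.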

Other observations

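The 4 kinases that phosphorylate eIF2, upstream of ATF4 translation, did not pass the threshold in any comparison, and they are named here after their values were seen. EIF2AK3, activated by endoplasmic reticulum stress, had 82.4, 90.9 and 90.9 CPM with gRNA2, 85.3, 84.1 and 85.7 with gRNA1 and 89.3, 90.4 and 92.9 in controls (0.968-fold (95% interval 0.907 to 1.03) for gRNA2 and 0.936-fold (95% interval 0.876 to 0.999) for gRNA1 against control). EIF2AK4, activated by uncharged tRNA, stood at 0.951-fold (95% interval 0.896 to 1.01) with gRNA2 and 0.941-fold (95% interval 0.886 to 0.999) with gRNA1. EIF2AK2, activated by double-stranded RNA, stood at 1.08-fold (95% interval 1.01 to 1.16) with gRNA2 and 1.02-fold (95% interval 0.954 to 1.09) with gRNA1, and EIF2AK1, the haem-regulated kinase, at 0.966-fold (95% interval 0.918 to 1.02) with gRNA2 and 0.958-fold (95% interval 0.910 to 1.01) with gRNA1. These are mRNA levels, and kinase activity was not measured.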
